A study of Mus musculus with 6 samples.

Results

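Granule genes of mast cells, basophils and eosinophils were examined in mouse bone marrow cells sorted for stem and progenitor cells, from mice with and without induced loss of Raptor. The set holds 10 genes chosen by name: the chymase-locus proteases Cma1, Mcpt4 and Mcpt8, the tryptase-locus genes Tpsab1, Tpsb2 and Prss34, the carboxypeptidase gene Cpa3, the eosinophil granule genes Prg2 and Epx, and the histamine-forming enzyme gene Hdc. Of these, 9 were measured among 18193 genes in all. No probe set names Prss34 alone in the annotation table used here, so it was not analysed here.

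The series comprises 6 single-colour 3' expression arrays, 3 wild type and 3 Raptor mutant. The cells of both groups were sorted as Flt3-Lin-Sca1+cKit+, that is without Flt3 or lineage markers on their surface, and came from mice of C57BL/6 background in which both Raptor alleles carried loxP sites around exon 6. The mutant mice carried the MxCre transgene, whose interferon-responsive promoter is active in blood cells and in other tissues, and the wild type mice lacked it. Both groups received 15 µg of polyinosinic-polycytidylic acid (pIpC) per g body weight in 3 injections within 5 days, and cells were sorted 5 weeks later. No age is given in the labels, and nothing there says whether an array stands for 1 mouse or for a pool, and the p-values reflect the variation among arrays, part of which may be technical.

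Mast cells, basophils and eosinophils store ready-made proteases, cationic proteins and amines in granules, from which they are released on activation. Chymases and tryptases are serine proteases that are held in the granule on the proteoglycan serglycin, together with carboxypeptidase A3. Committed progenitors of these lineages arise in the bone marrow and begin to transcribe granule genes before the granules form, and the transcription factors GATA2, GATA1, MITF and C/EBP alpha take part in the choice between the lineages. Raptor is the subunit that defines the kinase complex mTORC1, and the study asked which genes change in these cells when it is lost.

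Cma1, Mcpt8 and Prg2 had higher signal on all 3 mutant arrays than on any wild type array, by 3.58-fold to 4.92-fold in the mean. In sorted bulk samples, more cells of a type and more RNA per cell cannot be told apart. Cpa3 and Hdc had log2 fold changes (mutant minus wild type) of 0.77 and 0.76 with overlapping groups, and Mcpt4, Tpsab1, Tpsb2 and Epx had values between -0.19 and 0.40. By limma, 0 of the 9 genes were called at an adjusted p under 0.05 over all genes, where 0.110% of all genes were called. At an unadjusted p under 0.05, 3 of the 9 were higher, where 5.81% of all genes were higher at that level, and 0 were lower, where 4.24% were. The groups did not overlap in the same 3, against 8.08% of all genes that were higher without overlap, and 0 were lower without overlap, against 7.98%. The median log2 fold change was 0.76 over the 9 genes and -0.07 over all genes. The genes were chosen with earlier results of these data known, so these counts describe the set and do not test it.

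**Figure D1:**
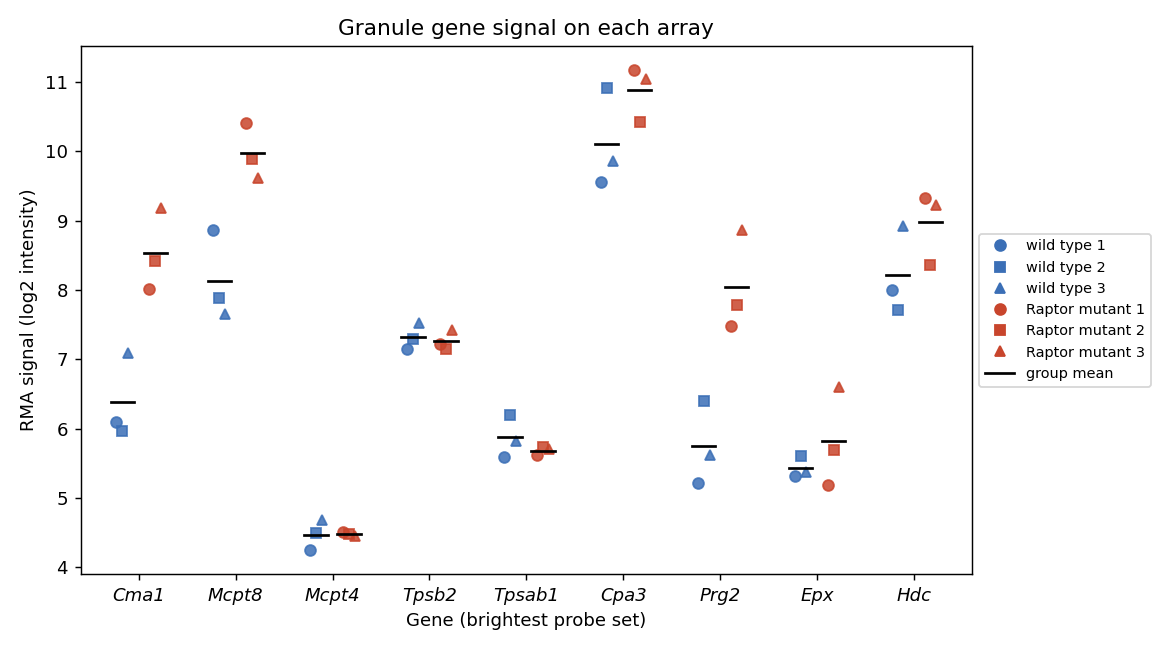
RMA signal (log2 intensity, vertical axis) of the 9 measured granule genes on each of the 6 arrays, with the group mean as a line; blue marks wild type and red Raptor mutant arrays, and the marker shape gives the array number. Red and blue points are separate for Cma1, Mcpt8 and Prg2 and intermingle for the other 6 genes.

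Arrays of one genotype differed from each other, and markers of other cells differed between the genotypes. Across all probe sets, the pairwise r was 0.957 to 0.967 among wild type and 0.985 to 0.988 among mutant arrays. Between a wild type and a mutant array it was 0.960 to 0.984, so it could exceed that among wild type arrays. The Y-linked gene Kdm5d had a log2 signal of 10.55 and 9.53 on wild type arrays 2 and 3 and of 3.60 to 3.88 on the other 4 arrays, so among arrays without Y-linked signal the mutants face wild type array 1 alone. The targeted gene Rptor differed by 0.22 ± 0.29 (SE, log2; limma adjusted p = 0.771). Since the place of its probes with respect to exon 6 was not analysed here, this value checks neither deletion nor labels. The gate gene Kit had mean log2 signals of 10.90 ± 0.24 in wild type and 10.79 ± 0.13 in mutant arrays (SD, n = 3 each). Flt3, whose protein was selected against, was at 10.15 ± 0.64 and 9.96 ± 0.28, and the gate gene Ly6a (Sca1) was not analysed here. Of the 8 measured genes on the list of stem and progenitor and gate genes, 3 were lower without overlap, against 7.98% of all genes, and 1 was higher, against 8.08%. The stem cell genes Mecom, Hlf and Procr had log2 fold changes of -0.996, -0.81 and -0.86 (limma adjusted p = 0.117, 0.147 and 0.157), and Cd48, a marker of progenitors beyond the stem cell stage, had one of 0.68 (adjusted p = 0.218, limma). Of 9 measured neutrophil markers all 9 were lower on average in mutant arrays, against 10844 of all 18193 genes. Without overlap 6 were lower, against 7.98% of all genes. Camp was the 1 called (log2 fold change -3.81, limma adjusted p = 0.030), where 0.110% of all genes were called. With the covariate for Y-linked signal 0 genes of the array were called. The summed intensity of the 9 ran from 18216 to 27072 in wild type and from 1894 to 5736 in mutant arrays. S100a9 and S100a8 had the highest mean signals among them. Mpo and Ctsg, neutrophil granule genes outside this list, were not lower, with log2 fold changes of 0.16 and 0.39. Of 11 measured markers of monocytes, macrophages and dendritic cells 10 were higher on average, against 7349 of all 18193 genes. Without overlap 7 were higher, against 8.08% of all genes, and 0 lower, against 7.98%. The groups of C1qa, Itgax, Mrc1 and Adgre1 overlapped, and Adgre1 was lower on average (log2 fold change -0.22). The summed intensity of the 11 ran from 2814 to 3620 in wild type and from 5880 to 12646 in mutant arrays. H2-Ab1, H2-Aa and Cd74, genes of antigen presentation, had the highest mean signals among them.

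The chymase-locus genes lie together on chromosome 14. Cma1 encodes mouse mast cell protease 5, an alpha-chymase of connective tissue mast cells. Mcpt4 encodes the chymase of mature connective tissue mast cells, and Mcpt8 a serine protease that marks mouse basophils. The stretch of 250 bases before the RefSeq transcription start is shown for these 3, because they are neighbours of one family with unlike values, and for Cpa3, a protease gene of another family and chromosome. Capitals mark matches to the GATA motif, searched on both strands as GATA with A or T before it and A or G after it.
Cma1: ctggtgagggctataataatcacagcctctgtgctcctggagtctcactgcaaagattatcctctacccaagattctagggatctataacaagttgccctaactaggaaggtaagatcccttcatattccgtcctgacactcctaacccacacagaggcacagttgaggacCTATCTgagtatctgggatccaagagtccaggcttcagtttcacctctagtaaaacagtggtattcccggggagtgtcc
Mcpt8: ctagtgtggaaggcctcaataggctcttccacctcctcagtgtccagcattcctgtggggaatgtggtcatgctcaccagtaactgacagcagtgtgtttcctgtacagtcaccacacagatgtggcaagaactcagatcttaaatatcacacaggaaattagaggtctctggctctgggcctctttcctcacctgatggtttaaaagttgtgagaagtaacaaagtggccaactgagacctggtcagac
Mcpt4: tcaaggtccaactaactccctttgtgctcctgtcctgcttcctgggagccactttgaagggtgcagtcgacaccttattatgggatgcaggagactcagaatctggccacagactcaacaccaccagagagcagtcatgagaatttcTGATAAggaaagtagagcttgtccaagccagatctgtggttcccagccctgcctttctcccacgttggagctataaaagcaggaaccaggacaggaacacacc
Cpa3: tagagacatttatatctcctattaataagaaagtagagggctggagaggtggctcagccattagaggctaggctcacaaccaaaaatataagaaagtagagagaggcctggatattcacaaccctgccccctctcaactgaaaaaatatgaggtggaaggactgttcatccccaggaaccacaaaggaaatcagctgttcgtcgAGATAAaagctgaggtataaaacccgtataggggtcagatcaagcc

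These windows come from RefSeq on build GRCm38.p6, all on the minus strand, at chr14:55944676-55944925 for Cma1, chr14:56085198-56085447 for Mcpt8, chr14:56062311-56062560 for Mcpt4 and chr3:20242182-20242431 for Cpa3. No build is named for the probe sets in the sources used here, and these coordinates apply to the promoters alone. A promoter was found for 7 of the 10 genes. A GATA motif was present in 5 of these 7 windows (Cma1, Mcpt4, Cpa3, Prss34 and Hdc) and in 26.5% of 32851 promoter windows of that length. Its first base lay 79 bases before the start in Cma1, 103 in Mcpt4, 46 in Cpa3, 31 in Prss34 and 221 in Hdc. The window of Mcpt8 holds none of these letters, nor does that of Epx. The motif TGTGGT, bound by RUNX factors, was found in Mcpt4, Mcpt8 and Cpa3, with 2 matches in Mcpt8, and in 14.0% of all windows. The MITF motif CATGTG was found in Prss34 alone of the 7 and in 12.3% of all windows. TGTGGT and CATGTG can share bases, but no matches overlapped in the 7 windows. Mcpt4, whose groups overlap, and Cma1, whose groups do not, thus both hold a GATA match, and Mcpt8 lacks one.

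Cma1 (probe set 1449456_a_at) had log2 signals of 6.10, 5.97 and 7.09 on wild type arrays 1, 2 and 3, and of 8.01, 8.42 and 9.19 on mutant arrays 1, 2 and 3. The highest wild type value stood 0.92 below the lowest mutant value. Group means were 6.39 ± 0.61 and 8.54 ± 0.60 (SD, n = 3 each), a difference of 2.15 ± 0.38 (SE, log2) or 4.45-fold, with a limma p of 5.8e-04 and an adjusted p of 0.138. This p ranks at place 75 of 18193.

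Mcpt8 (1449965_at) had log2 signals of 8.86, 7.88 and 7.65 on the wild type and of 10.41, 9.90 and 9.61 on the mutant arrays, in the same order. Wild type array 1 was nearest to the mutants, with a gap of 0.75 to the lowest of them. The difference was 1.84 ± 0.34 (SE, log2), or 3.58-fold, with a limma adjusted p of 0.147. Against wild type array 1 alone, the only wild type array without Y-linked signal, the log2 difference was 1.11, and without that array it was 2.20.

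Mcpt4 (1425967_a_at) had log2 signals of 4.25, 4.49 and 4.68 on wild type and of 4.51, 4.49 and 4.45 on mutant arrays. All 6 values lay below the lower quartile of their arrays, which was between 5.15 and 5.37, and no detection calls were used here. Its log2 fold change was 0.01, with a 95% confidence interval of -0.38 to 0.39 (limma adjusted p = 0.991).

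Along chromosome 14 the locus runs from Cma1 at one end to the granzyme gene Gzmb at the other, and holds 17 protein-coding genes or transcribed pseudogenes in RefSeq, 14 of them measured. In 5 of the 14 the mutant arrays all stood above the wild type arrays, against 8.08% of all genes, and 0 stood below, against 7.98%. The 5 were Cma1, the pseudogene Mcpt-ps1, Mcpt8, the cathepsin G gene Ctsg and Gzmb. Gzmb, a protease of cytotoxic granules that mast cells can also express, rose by 4.21 ± 0.38 (SE, log2; limma adjusted p = 0.013). It was the single gene of the locus that was called, where 0.110% of all genes were called. Gzmb was not called with the covariate for Y-linked signal (3.75, limma adjusted p = 0.311), against wild type array 1 alone (3.75, adjusted p = 0.207) or without wild type array 3 (4.34, adjusted p = 0.076). Ctsg, a protease of neutrophil and mast cell granules, was 0.39 ± 0.18 higher (SE, log2; limma adjusted p = 0.524), with a gap of only 0.0045 between the groups. Mcpt-ps1 was 0.45 ± 0.16 higher (SE, log2; limma adjusted p = 0.421). The mucosal mast cell protease genes Mcpt1 and Mcpt2 had log2 fold changes of 0.05 and -0.06 at mean signals between 3.80 and 4.20, and Gzmc to Gzmg and Gzmn overlapped between groups as well. Members of this family are alike in sequence, and how far a probe set binds transcripts of its relatives was not tested.

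**Figure D2:**
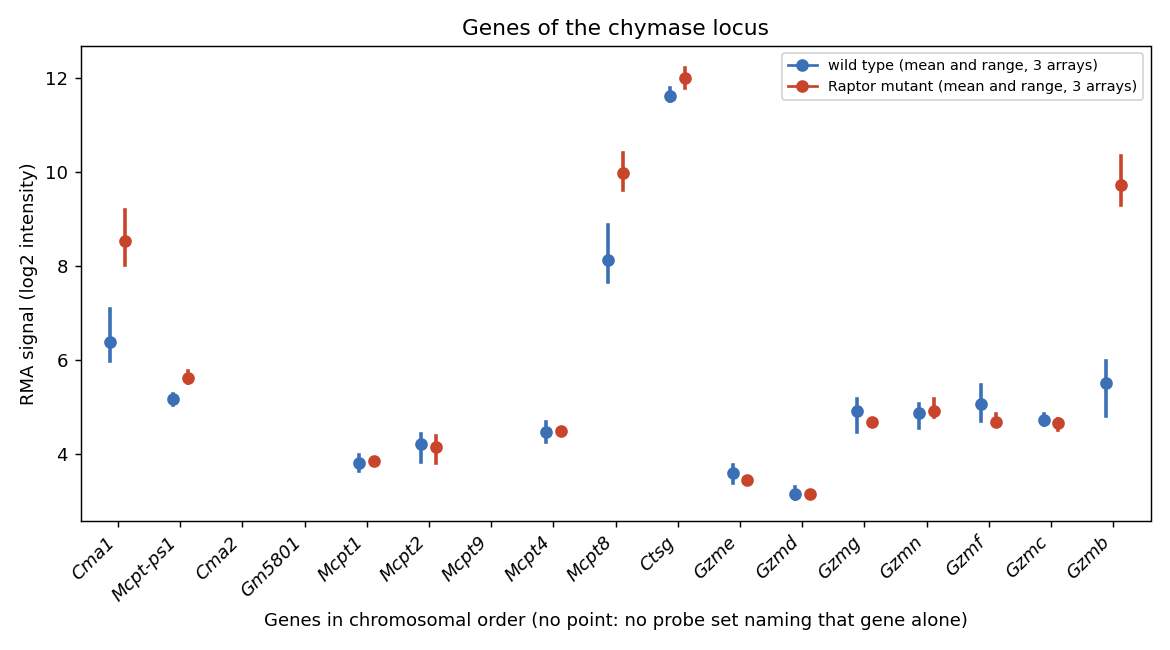
RMA signal (log2 intensity, vertical axis) of genes of the chymase locus in chromosomal order, shown as the mean (point) and the range over 3 arrays (bar) for wild type in blue and Raptor mutant in red. Cma1, Mcpt8 and Gzmb lie clearly apart between groups, while Mcpt1, Mcpt2, Mcpt4 and the other granzyme genes lie at low signal in both.

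Neither measured tryptase gene, both on chromosome 17, stood apart between the groups. Tpsb2 encodes mouse mast cell protease 6, the main tryptase of connective tissue mast cells. Its brighter probe set (1422180_a_at) had log2 signals of 7.16, 7.30 and 7.53 on wild type and of 7.22, 7.15 and 7.42 on mutant arrays. The groups overlapped, and the log2 fold change of -0.06 had a 95% confidence interval of -0.45 to 0.33 (limma adjusted p = 0.896). The dimmer probe set of Tpsb2 (1451802_at) had values of 4.80 to 5.46 in wild type and of 4.68 to 4.91 in mutant arrays, with a log2 fold change of -0.31 ± 0.21 (SE).

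Tpsab1, which encodes mouse mast cell protease 7 in other strains, is listed as a transcribed pseudogene in the C57BL/6J reference used here. Its probe set (1426175_a_at) had log2 signals of 5.60, 6.20 and 5.83 on wild type and of 5.61, 5.73 and 5.71 on mutant arrays. The mutant values lay within the wild type range, and the log2 fold change was -0.19 (95% confidence interval -0.63 to 0.25, limma adjusted p = 0.720). Of the 6 genes of this locus from Prss34 to Tpsg1, 5 were measured. Without overlap 1 of these was lower, against 7.98% of all genes, and 0 were higher, against 8.08%. The 1 was Prss29, which was 0.47 ± 0.22 (SE, log2) lower with a limma adjusted p of 0.528.

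Cpa3 encodes carboxypeptidase A3, a metalloprotease of mast cell and basophil granules that is also transcribed in stem and progenitor cells. Log2 signals of its probe set (1448730_at) were 9.56, 10.92 and 9.86 on wild type and 11.17, 10.43 and 11.04 on mutant arrays. Wild type array 2 lay within the mutant range, and the other wild type arrays lay below it. The difference was 0.77 ± 0.37 (SE, log2), with a 95% confidence interval of -0.08 to 1.62 and a limma adjusted p of 0.540. Without wild type array 2 it was 1.17 (adjusted p = 0.255, limma), and without wild type array 1 it was 0.49.

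Hdc encodes histidine decarboxylase, the enzyme that makes histamine, and is also active in myeloid-biased stem and progenitor cells. Its brighter probe set (1454713_s_at) had log2 signals of 8.01, 7.71 and 8.93 on wild type and of 9.33, 8.37 and 9.23 on mutant arrays. Wild type array 3 stood above mutant array 2, so the groups overlapped, and the difference was 0.76 ± 0.37 (SE, log2; 95% confidence interval -0.10 to 1.63, limma adjusted p = 0.547). The dimmer probe set (1451796_s_at) had values of 7.41, 7.72 and 6.90 on wild type and of 8.51, 8.02 and 8.41 on mutant arrays. There the groups did not overlap, and the difference was 0.97 ± 0.25 (SE, log2), with a limma p of 0.0058 and an adjusted p of 0.319 over all probe sets. The probe sets disagreed on wild type array 3, which was the highest of its group in the brighter and the lowest in the dimmer set. By the suffix of their names both may bind transcripts of more than 1 kind.

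The eosinophil granule genes Prg2 and Epx had unlike values. Prg2 encodes major basic protein, the cationic core protein of the eosinophil granule, which basophils and mast cells also make. Its probe set (1422873_at) had log2 signals of 5.21, 6.40 and 5.62 on wild type and of 7.48, 7.79 and 8.86 on mutant arrays. The gap between the groups was 1.08, the widest of the 9 genes. Means were 5.75 ± 0.60 and 8.05 ± 0.72 (SD, n = 3 each), a difference of 2.30 ± 0.42 (SE, log2) or 4.92-fold, with a limma p of 6.4e-04 and an adjusted p of 0.143. The wild type mean was near the lower quartile of the arrays, so the fold is not exact.

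Epx encodes eosinophil peroxidase, which is largely restricted to eosinophils. The log2 signals of its probe set (1449136_at) were 5.32, 5.60 and 5.37 on wild type and 5.19, 5.70 and 6.60 on mutant arrays. Mutant array 3 alone stood well above the wild type values, and mutant array 1 stood below them. The log2 fold change was 0.40 (95% confidence interval -0.38 to 1.17, limma adjusted p = 0.680), and without mutant array 3 it was 0.01. The related gene Prg3, a homologue of major basic protein, had a log2 fold change of -0.04 at mean signals near 5.0 in both groups.

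**Figure D3:**
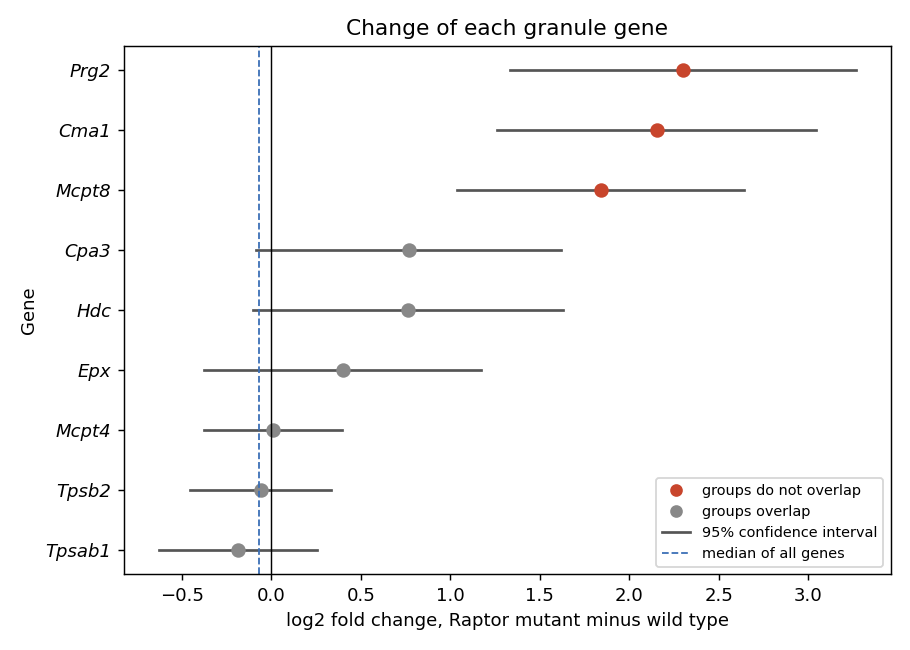
Log2 fold change (mutant minus wild type, horizontal axis) of each of the 9 measured granule genes with its 95% confidence interval from limma; red points mark genes whose groups do not overlap and the dashed line is the median of all genes at -0.07. The intervals of Prg2, Cma1 and Mcpt8 lie above 0 and the other 6 include it.

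The genes did not share one order over the arrays. Among mutant arrays Cma1, Prg2 and Epx were highest on array 3 and lowest on array 1, whereas Mcpt8 was highest on array 1 and lowest on array 3. Cpa3 and Hdc were highest on mutant array 1 and lowest on array 2. Among wild type arrays Cma1 and Hdc were highest on array 3, Mcpt8 on array 1, and Prg2, Epx and Cpa3 on array 2. Each of the 3 wild type arrays was thus the highest for some of these genes.

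**Figure D4:**
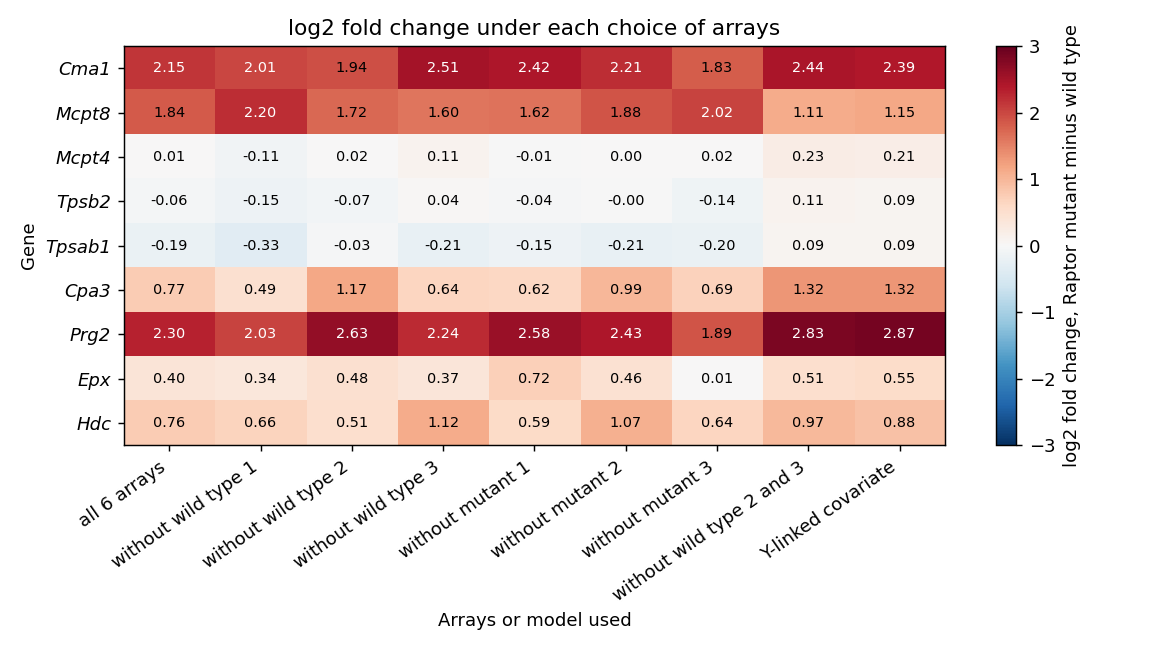
Log2 fold change (mutant minus wild type, colour and printed value) of each granule gene (rows) with all arrays, without each array in turn, against wild type array 1 alone, and with a covariate for Y-linked signal (columns). Cma1 stays between 1.83 and 2.51, Mcpt8 between 1.11 and 2.20 and Prg2 between 1.89 and 2.87, while Mcpt4, Tpsb2 and Tpsab1 take both signs.

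Cma1, Mcpt8, Prg2, Cpa3, Hdc and Epx kept a positive log2 fold change under each of the 18 alternatives that could be fitted with them. Several alternatives, such as the replicate block and trend and robust fitting, leave the estimate itself unchanged. For Cma1, Mcpt8 and Prg2, whose groups do not overlap, leaving out arrays cannot change the sign. The kept sign is therefore no separate support. Over the alternatives, Cma1 ranged from 1.83 to 2.51 and Prg2 from 1.89 to 2.87 on the log2 scale. Against wild type array 1 alone Cma1 had a log2 fold change of 2.44 and Prg2 one of 2.83, where Mcpt8 had one of 1.11. With the covariate for Y-linked signal Mcpt8 was at 1.15. That signal was high on wild type arrays 2 and 3 alone, so the covariate makes largely the same comparison and is no separate check. Against wild type array 1 alone the spread comes from the mutant arrays, so the wild type is assumed to vary as they do. With all arrays the median SD of a gene was 0.29 in wild type and 0.16 in mutant arrays (log2). The spread used there may thus be too small. The smallest adjusted p of limma among the alternatives was 0.055 for Cma1, and 0.063 for both Mcpt8 and Prg2. Their largest were 0.532, 0.596 and 0.467.

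Receptors and surface proteins of the same lineages were counted from a list of 15 genes, 13 of them measured. Of these 4 stood higher without overlap, against 8.08% of all genes, and 0 lower, against 7.98%. By limma 0 were called, against 0.110% of all genes, and the median log2 fold change was 0.11. The beta and alpha chains of the high-affinity IgE receptor had the smallest p, with log2 differences of 2.77 ± 0.38 for Ms4a2 and 3.45 ± 0.55 for Fcer1a (SE; limma adjusted p = 0.072 and 0.099). Fcer1a was at 7.49 on wild type array 1, without Y-linked signal, and at 5.34 and 5.41 on wild type arrays 2 and 3. Its mutant values were 9.30 to 9.92, so its difference depends on the wild type arrays used. Csf2rb, the shared beta chain of the receptors for interleukin 3, interleukin 5 and GM-CSF, was 1.30 higher (adjusted p = 0.157, limma). Il5ra, the interleukin 5 receptor chain of eosinophils, and Ccr3, the eotaxin receptor, had log2 fold changes of -0.11 and -0.09 with overlapping groups. In wild type and mutant arrays the mean log2 signals were 5.03 and 4.93 for Il5ra and 4.16 and 4.07 for Ccr3. These means lay below the lower quartile of the arrays, which was between 5.15 and 5.37. Il5ra and Ccr3 were named for their role and not for their values. In all, the groups of 9 of the 13 genes overlapped. Besides Il5ra and Ccr3 these were Csf2rb2 (log2 fold change 1.07), Fcer1g (0.15), Cd200r3 (0.11), Siglecf (0.03), Kit (-0.11), Il3ra (-0.12) and Enpp3 (-0.31). Over all 6 arrays the mean log2 signal was 8.39 for Siglecf, 4.19 for Enpp3 and 3.80 for Cd200r3.

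Genes for the granule matrix, loading and secretion (20 listed, 18 measured) had a median of 0.03, with 3 higher and 1 lower without overlap, against 8.08% and 7.98% of all genes, and 0 called by limma, against 0.110%. Ext1, which builds heparan sulfate chains, was 0.99 higher (limma adjusted p = 0.131) and Rab27a, a GTPase of granule docking, was 0.70 higher (adjusted p = 0.226). Its relative Rab27b was 0.73 lower on average, with overlapping groups (log2 fold change -0.73, limma adjusted p = 0.407). Srgn, the serglycin core protein that holds the proteases, had mean log2 signals of 13.04 ± 0.10 in wild type and 12.90 ± 0.10 in mutant arrays (SD, n = 3 each), with a log2 fold change of -0.13. Ndst2, the sulfotransferase needed for mast cell heparin, was 0.55 ± 0.22 higher (SE, log2; adjusted p = 0.463, limma). Its groups did not overlap, with a gap of only 0.022. Srgn and Ndst2 were named for their role.

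Of 14 measured transcription factor genes out of 15 listed, 1 was called, Bhlhe40, which rose by 2.54 (log2, limma adjusted p = 0.013), where 0.110% of all genes were called. It was not called with the covariate for Y-linked signal (2.14, limma adjusted p = 0.272) or against wild type array 1 alone (2.09, adjusted p = 0.116), nor without mutant array 1 (2.55, adjusted p = 0.068), without mutant array 3 (2.51, adjusted p = 0.064) or with the replicate block (adjusted p = 0.062). Cebpa, needed for basophil and granulocyte commitment, was 0.86 higher and Mitf, a regulator of mast cell protease genes, was 0.80 higher, both without overlap (limma adjusted p = 0.165 and 0.314). Gata2 and Gata1, named for their role, had log2 fold changes of 0.02 and 0.28 with overlapping groups. The list's median was 0.03. Among relatives of the granule proteins (18 listed, 11 measured) the median was -0.06. Gzmb was the 1 gene called, where 0.110% of all genes were called. Of the 11, 2 were higher and 0 lower without overlap, against 8.08% and 7.98% of all genes. The pancreatic carboxypeptidase gene Cpa1 stood at -0.48 (log2 fold change, limma adjusted p = 0.569), and the neutrophil peroxidase gene Mpo one of 0.16.

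Of the marker lists not given above, 10 measured T and NK cell genes had 0 members apart between groups, and so had 7 B cell and 6 erythroid genes. Over all genes 8.08% were higher and 7.98% lower without overlap, so 0 in lists this short says little. Of 8 megakaryocyte and platelet genes 1 was higher and 2 were lower without overlap, against 8.08% and 7.98% of all genes. Signals of neutrophil, monocyte, macrophage and dendritic cell markers and of stem cell genes apart between groups are given above. Their part in the granule gene values was not tested.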

How the data were processed

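Gene expression was measured on 6 arrays of sorted cells. Per the submitters' processing notes, the authors used RMA (version and settings: not given in the sources used here), and they deposited an intensity for each probe set. These values are linear (7.6 to 33795), so log2 was taken, with no further normalization. The number of arrays limits the precision. Probe sets naming a single gene (34945 of 45101) were kept, and each gene was read from its probe set with the highest mean over all 6 arrays, which gave 18193 genes, with no filter on dim ones. The comparison used lmFit and eBayes of limma 3.58.1 under R 4.3.3, mutant minus wild type, two-sided, with Benjamini-Hochberg adjustment over all genes, and calls at an adjusted p under 0.05. The procedure was tested on simulated data with equal spread in both groups. The spread of the real arrays was unequal, and that test does not cover this. The genes, lists and alternatives were chosen with earlier results of these data known. Named are all 10 genes, the 3 with the smallest p of each related list, called ones, and others as the text says.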

Additional observations from a re-analysis of the deposited data

How the results depend on the processing

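Of the 9 measured granule genes 0 were called under any of the 18 alternatives, with 1 to 5 at an unadjusted p under 0.05 in limma. Their median log2 fold change was 0.49 to 0.99 when single arrays were left out. It lay within this range under the other alternatives too, with 7 genes left after the lower 25% and 3 after the lower 50% of genes were left out. With all probe sets tested separately, 12 probe sets were called, a count of probe sets and not of genes. The number of genes called over the whole array, 20, was 40 with trend and robust fitting, 8 with array weights and 49 at an adjusted p under 0.10. It ranged from 5 to 31 without single arrays: 31 without wild type array 1, 5 without wild type array 3, 10 without mutant array 1 and 9 without mutant array 3. It was 0 with a covariate for Y-linked signal (1149 at an unadjusted p under 0.05) and 0 without wild type arrays 2 and 3 (1729), both by limma. Over 17 alternatives Gzmb was called in 14 and Bhlhe40 in 12, with log2 values of 3.75 to 4.43 and 2.09 to 2.76. Values near 0 changed sign. Mcpt4 was at -0.0078 with array weights and from -0.11 to 0.11 without single arrays. Tpsab1 was at 0.092 with the covariate and 0.091 without wild type arrays 2 and 3, and Tpsb2 at 0.091 and 0.110 there and from -0.146 to 0.039 without single arrays. The cause of these shifts was not tested. The groups share replicate numbers, but deviations of same-numbered arrays correlated at 0.18, -0.03 and 0.06, and 1 of 3 wild type arrays correlated best with its own number, so the numbers were not taken as pairs. With the replicate block 10 genes and 0 granule genes were called.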
